A study of Mus musculus with 17 samples.

Results

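The antigen receptor genes of lymphocytes were examined as 139 immunoglobulin (IG) and T-cell receptor (TR) gene segments in mouse hearts with and without a proofreading-deficient mitochondrial DNA polymerase. The segments were chosen by measured values, as the rows annotated as functional IG or TR segments that held at least 10 counts summed over 17 heart libraries, and 139 of 494 such rows met this rule in a table of 56748 genes. They comprised 11 IG and 7 TR constant segments, 87 IG and 17 TR variable segments, 9 IG and 7 TR joining segments and 1 TR diversity segment. In all they held 41625 counts, of which 86.5% lay on constant segments. The 355 rows left out held 657 counts between them, 179 of them had no count, and they included the constant segments Ighe with 5 counts, Trgc3 with 3 and Iglc4 with 0. At the edge of the rule, 7 members had exactly 10 counts and 8 rows had 9.

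B cells and plasma cells express immunoglobulins, and T cells express the TR chains. Each chain is put together in the developing lymphocyte by joining a variable, in some loci a diversity, and a joining segment, and the joined exon is then spliced to a constant segment. The constant segment sets the class of the chain, which is mu or delta in naive B cells and gamma, alpha or epsilon after class switching, kappa or lambda for light chains, and alpha, beta, gamma or delta for TR chains. The variable segment is chosen anew in each lymphocyte precursor, so its use reflects which lymphocytes were sampled. Muscle cells of the heart do not rearrange these loci, and the transcripts of whole hearts are generally taken to come from resident or circulating lymphocytes. In whole-tissue RNA, fewer lymphocytes and less receptor RNA per lymphocyte cannot be told apart.

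Bulk RNA-seq of polyadenylated RNA covered 9 hMut hearts and 8 control (Ctrl) hearts from mice aged 12 to 16 months, with 1 library per heart. hMut mice were homozygous for the inducible Polg iMut allele (Polg iMut/iMut) and carried 1 copy of Ckmm-cre, whose muscle creatine kinase promoter drives recombination in heart and skeletal muscle, and recombination switched the allele to a proofreading-deficient polymerase. The labels name the other group as control without giving alleles. The comparison addresses the study's question of how the heart transcriptome differs between the genotypes. Libraries held 32915159 to 46486964 counts. Polg, the targeted gene, was at 32.7 ± 7.02 CPM (counts per 1000000 counts of the library; SD, n = 8) in Ctrl and 60.9 ± 4.47 CPM (n = 9) in hMut, a log2 fold change of 0.74 (SE 0.11; edgeR's quasi-likelihood test, Benjamini-Hochberg adjusted p = 0.000549). The marker genes of heart muscle cells summed to 41063 to 59399 CPM, and the defining atrial and fat cell lists summed to at most 2.76 and 1.81 CPM.

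Individual libraries stood apart in the receptor segments. Ctrl 3 held 36.4% of all counts on IG constant segments other than Ighg2c and 40.1% of those on IG variable segments. hMut 6 held 43.4% of the counts on TR constant segments and 41.1% of those on TR variable segments. Ctrl 2 and hMut 6 were the next highest hearts for IG. Ctrl 3, hMut 4 and, less, Ctrl 2 and hMut 2 also carried hepatocyte transcripts, whose list of 12 genes (chosen after the values were seen) summed to 475 CPM, 157 CPM, 31.9 CPM and 17.8 CPM in these hearts and to 0.665 to 2.84 CPM in the other 13. The IG constant, IG variable, TR constant and TR variable sums and the fold changes of Ighm, Igkc and Trac are given with and without Ctrl 3 or hMut 6.

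Variable exons of 6 segments are printed here because they carry the results that follow. Igkv5-39 and Igkv3-2 led the kappa counts of different hearts, Ighv1-53 had most heavy chain variable counts, Igkv16-104 was the member past the test threshold, and Trbv20 and Trgv2 led their loci in hMut 6. Sequences are from GRCm39, 5′ to 3′ on the coding strand, cut to the last 300 bases where the exon is longer. Capitals run from the last in-frame cysteine codon to the end of the exon, the stretch that the germline segment gives to the third complementarity-determining region before joining.
Igkv5-39: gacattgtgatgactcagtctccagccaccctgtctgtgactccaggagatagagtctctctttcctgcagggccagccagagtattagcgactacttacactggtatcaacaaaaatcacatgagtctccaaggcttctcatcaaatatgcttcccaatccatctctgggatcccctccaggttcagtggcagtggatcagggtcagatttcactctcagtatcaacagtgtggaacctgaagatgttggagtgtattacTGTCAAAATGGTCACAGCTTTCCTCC
Igkv3-2: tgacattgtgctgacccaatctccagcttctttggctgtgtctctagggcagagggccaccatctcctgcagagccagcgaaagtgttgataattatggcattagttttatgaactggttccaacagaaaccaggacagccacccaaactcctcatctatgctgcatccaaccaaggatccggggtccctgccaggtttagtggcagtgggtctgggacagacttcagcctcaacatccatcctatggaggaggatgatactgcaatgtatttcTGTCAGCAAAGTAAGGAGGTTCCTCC
Igkv16-104: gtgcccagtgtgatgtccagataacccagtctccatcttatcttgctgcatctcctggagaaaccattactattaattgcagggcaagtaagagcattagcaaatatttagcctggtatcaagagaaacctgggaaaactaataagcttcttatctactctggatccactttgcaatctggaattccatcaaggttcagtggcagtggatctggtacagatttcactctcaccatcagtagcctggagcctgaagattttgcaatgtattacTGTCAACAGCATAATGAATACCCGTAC
Ighv1-53: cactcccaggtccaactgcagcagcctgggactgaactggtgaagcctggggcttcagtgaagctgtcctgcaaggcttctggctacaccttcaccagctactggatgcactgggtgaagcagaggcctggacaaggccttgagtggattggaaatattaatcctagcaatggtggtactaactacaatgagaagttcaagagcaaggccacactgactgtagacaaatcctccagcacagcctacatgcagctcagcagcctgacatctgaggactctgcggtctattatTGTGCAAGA
Trbv20: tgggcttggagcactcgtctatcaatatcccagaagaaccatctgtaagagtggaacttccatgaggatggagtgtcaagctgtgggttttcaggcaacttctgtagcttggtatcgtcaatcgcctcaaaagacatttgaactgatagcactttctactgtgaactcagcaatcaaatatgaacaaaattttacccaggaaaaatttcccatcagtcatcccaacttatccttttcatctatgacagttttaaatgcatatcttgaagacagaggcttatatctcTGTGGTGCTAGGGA
Trgv2: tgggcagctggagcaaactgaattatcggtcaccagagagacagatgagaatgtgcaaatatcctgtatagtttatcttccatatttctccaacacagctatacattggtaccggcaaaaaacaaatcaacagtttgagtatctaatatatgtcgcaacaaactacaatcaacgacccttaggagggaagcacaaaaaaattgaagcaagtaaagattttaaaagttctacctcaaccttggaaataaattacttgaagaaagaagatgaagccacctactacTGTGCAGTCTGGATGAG

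The printed stretches lie at chr6:69877408-69877694 on the minus strand for Igkv5-39, chr6:70675752-70676051 on the plus strand for Igkv3-2, chr6:68402758-68403056 on the plus strand for Igkv16-104, chr12:115122023-115122322 on the minus strand for Ighv1-53, chr6:41165612-41165911 on the plus strand for Trbv20 and chr13:19520743-19521042 on the minus strand for Trgv2. The exons of Igkv5-39 and Igkv3-2 were 67.6% identical, so their reads can be told apart. The nearest other functional kappa segment was 91.6% identical to Igkv5-39 (Igkv5-45, 5 counts in all) and 92.9% identical to Igkv3-2 (Igkv3-1, 9 counts), and the nearest to Ighv1-53 was 96.1% identical (Ighv1-72, 6 counts). The recombination heptamer CACAGTG, at which the joining enzymes cut, was searched in the 60 bases after each variable exon on the coding strand. It stood there in 78 of 104 variable members (75.0%), in 199 of 261 functional variable rows under 10 counts (76.2%) and in 62 of 189 variable pseudogenes (32.8%), and in 61.2% of all 554 variable rows.

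Receptor segments differed widely between hearts of the same genotype. Of 139 members, 1 passed the threshold, Igkv16-104, which was lower in hMut, and none was higher (edgeR's quasi-likelihood test over 24898 genes, Benjamini-Hochberg adjusted p under 0.05). Over all tested genes the same test called 551, which is 2.21% in either direction, 1.84% higher and 0.374% lower in hMut. At an unadjusted p under 0.05 there were 30 members (21.6%), of which 20 were lower and 10 higher, where the share over all tested genes was 19.4%, with 8.23% lower and 11.2% higher. The median log2 fold change of hMut against Ctrl was -1.12 over 107 IG members and 1.10 over 32 TR members, against 0.00 over all genes tested, and the choice of members by their summed counts favours segments that are high in a few hearts. Leaving aside 3 members at 0 in every heart of a group, whose fitted values depend on the prior count, these medians were -1.12 and 1.06. Over all 139 members the median was -0.80, and it turned to 0.17 without Ctrl 3, to 0.27 without Ctrl 2, Ctrl 3 and hMut 6, and to 0.51 without Ctrl 2, Ctrl 3 and hMut 4, the 3 hearts with most hepatocyte transcripts. Leaving these hearts out also took 20 to 54 members below the 10 counts that the test required.

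**Figure D1:**
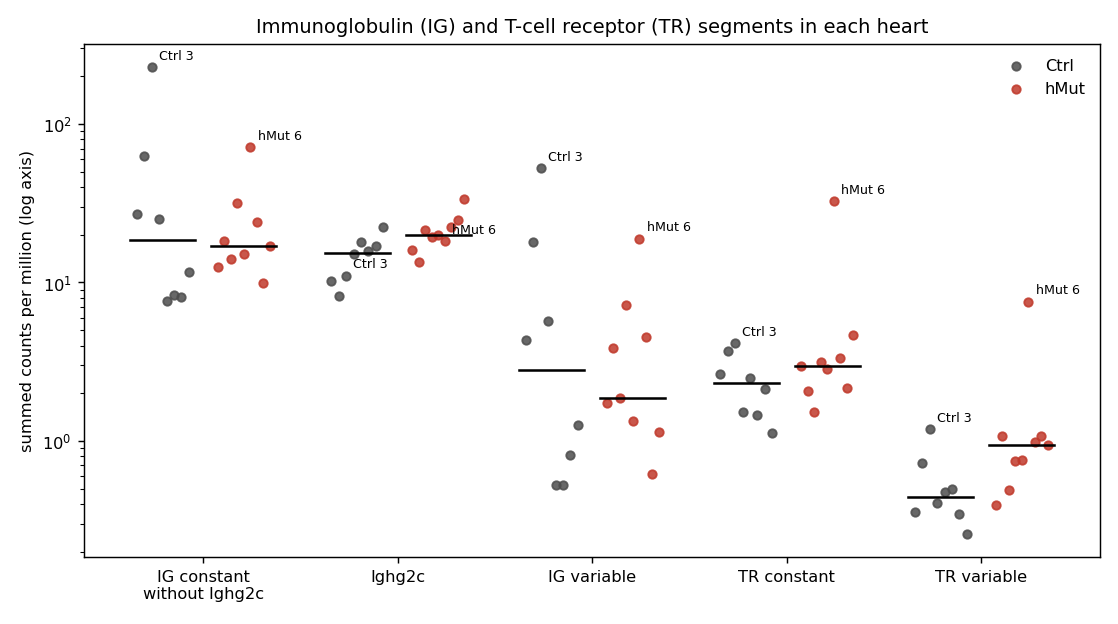
Summed CPM (log axis) of 4 classes of segments and of Ighg2c in each heart, where the IG constant class leaves out Ighg2c. Each point is 1 heart (8 Ctrl in grey, 9 hMut in red) and each line a group median, and Ctrl 3 (228 CPM) tops the IG constant class without Ighg2c while hMut 6 (32.8 CPM) tops the TR constant class.

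IG constant segments without Ighg2c summed to 7.69 CPM at the lowest, 18.4 CPM at the median and 228 CPM at the highest in Ctrl, and to 9.97, 17.1 and 71.7 CPM in hMut. The groups overlapped in part, with Ctrl 3 above every hMut heart and Ctrl 5, Ctrl 6 and Ctrl 7 below every hMut heart. Ctrl 3 and Ctrl 2 (62.7 CPM) were high among the controls, and hMut 6 and hMut 4 (31.7 CPM) among the mutants. Without Ctrl 3 and hMut 6 the medians were 11.6 CPM in 7 Ctrl hearts and 16.1 CPM in 8 hMut hearts, so the order of the medians turned, as it did when any of Ctrl 1, Ctrl 2, Ctrl 3 or Ctrl 4 alone was left out. None of the 18 constant segments passed the threshold by edgeR, by DESeq2 or by limma-voom. An unadjusted p under 0.05 by edgeR was found for 4 of the 18 (22.2%), against 19.4% of all tested genes.

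Ighm, the constant segment of IgM, had 209 to 3889 counts in Ctrl hearts and 268 to 1701 in hMut hearts. The medians were 10.8 and 11.04 CPM, and the highest values were 113 CPM in Ctrl 3 and 46.3 CPM in hMut 6. Its log2 fold change was -0.94 with a standard error (SE) of 0.56 (edgeR's quasi-likelihood test, Benjamini-Hochberg adjusted p = 0.364), and without Ctrl 3 it was 0.04. Ighd, the constant segment of IgD, which naive B cells carry beside IgM, had 12 to 489 counts in Ctrl and 26 to 94 in hMut. The highest Ighd count was again in Ctrl 3, while hMut 6, the hMut heart with most Ighm, had 76. Ighm counts per Ighd count were therefore 22.4 in hMut 6, against 7.95 in Ctrl 3 and a median of 7.88 in Ctrl and 7.63 in hMut. The ratio was also high in Ctrl 6 (18.75) and Ctrl 5 (16.1), which had only 12 and 13 Ighd counts.

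Igkc, the kappa light chain constant segment, had 28 to 2870 counts in Ctrl and 45 to 721 in hMut. Ctrl 3 was highest at 83.4 CPM, followed by hMut 6 at 19.6 CPM and Ctrl 2 at 15.5 CPM, and the medians were 3.87 and 2.82 CPM. Without Ctrl 3 the Ctrl median was 1.61 CPM, below that of hMut, and it was the same without Ctrl 1, Ctrl 2 or Ctrl 4 in its place. The log2 fold change of -1.71 (SE 0.83) did not pass edgeR's test (adjusted p = 0.265), and without Ctrl 3 it was -0.08. The lambda constant segments Iglc1, Iglc2 and Iglc3 summed to 0.0275 to 6.07 CPM in Ctrl and 0.304 to 1.39 CPM in hMut, with medians of 0.501 and 0.406 CPM, and without Ctrl 3 the Ctrl median was 0.280 CPM, below that of hMut. Lambda made up 10.7% of the light chain constant counts at the median in Ctrl and 14.7% in hMut, but 2.83% of the 742 counts in hMut 6. It was as low in Ctrl 6, at 2.44% of only 41 counts, and was 6.79% in Ctrl 3. Iglc2 and Iglc3 are 96.5% identical in their coding sequence, so the split between them is uncertain. The Igkc row overlaps the long noncoding RNAs Gm30211 (same strand, 79 counts) and Gm68839 (opposite strand), and those of Iglc1 and Iglc3 overlap 2010309G21Rik (opposite strand, 19 counts).

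Among the class-switched heavy chains, Ighg3 came nearest to the threshold. It encodes the constant region of IgG3 and had 0 to 55 counts in Ctrl, with the most in Ctrl 2 and Ctrl 3 (51), and 0 to 11 in hMut, with 4 hMut hearts at 0. Its log2 fold change was -3.01 (SE 0.86; edgeR adjusted p = 0.0695), and it was called when Ctrl 8 (adjusted p = 0.0470) or hMut 4 (adjusted p = 0.0411) was left out and not when any other heart was. Ighg2b (IgG2b) had 0 to 199 counts in Ctrl and 0 to 52 in hMut, and the hearts with over 40 counts were Ctrl 3, hMut 6, Ctrl 2 and hMut 4. Ighg1 (IgG1) peaked at 36 counts in hMut 4, where Ctrl 3 had 22 and no other heart more than 7. Igha (IgA) had 8 to 126 counts in Ctrl and 1 to 59 in hMut, with Ctrl 3, Ctrl 2 and hMut 6 highest. Fold changes of these 3 segments were between -1.60 and -0.08 on the log2 scale, and none passed edgeR's test (lowest adjusted p = 0.331).

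Ighg2c, the constant segment of the IgG2c subclass of the C57BL/6 background, behaved unlike the other IG constants. It had 309 to 1036 counts in Ctrl and 512 to 1318 in hMut, and every heart lay between 8.26 and 33.4 CPM. The hearts high in Igkc were not high in Ighg2c, since Ctrl 1 (400), Ctrl 2 (309) and Ctrl 3 (381) had the fewest Ighg2c counts of all. Igkc counts per Ighg2c count ranged from 0.0383 in Ctrl 7 to 7.53 in Ctrl 3. Per kilobase of the gene's annotated length, Ighg2c was the highest constant segment at the median over the hearts, at 13.6 CPM per kb, followed by Ighm at 5.85 and Igkc at 5.29, whereas in Ctrl 3 the order was Igkc (157), Ighm (59.9) and Ighg2c (8.35). The median level was 15.4 CPM in Ctrl and 19.99 CPM in hMut, the groups overlapped, and the log2 fold change of 0.34 (SE 0.18) missed edgeR's threshold (adjusted p = 0.296). Ighg2c and Ighg2b are 87.8% identical in their coding sequence, and no other annotated gene overlaps the Ighg2c row.

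**Figure D2:**
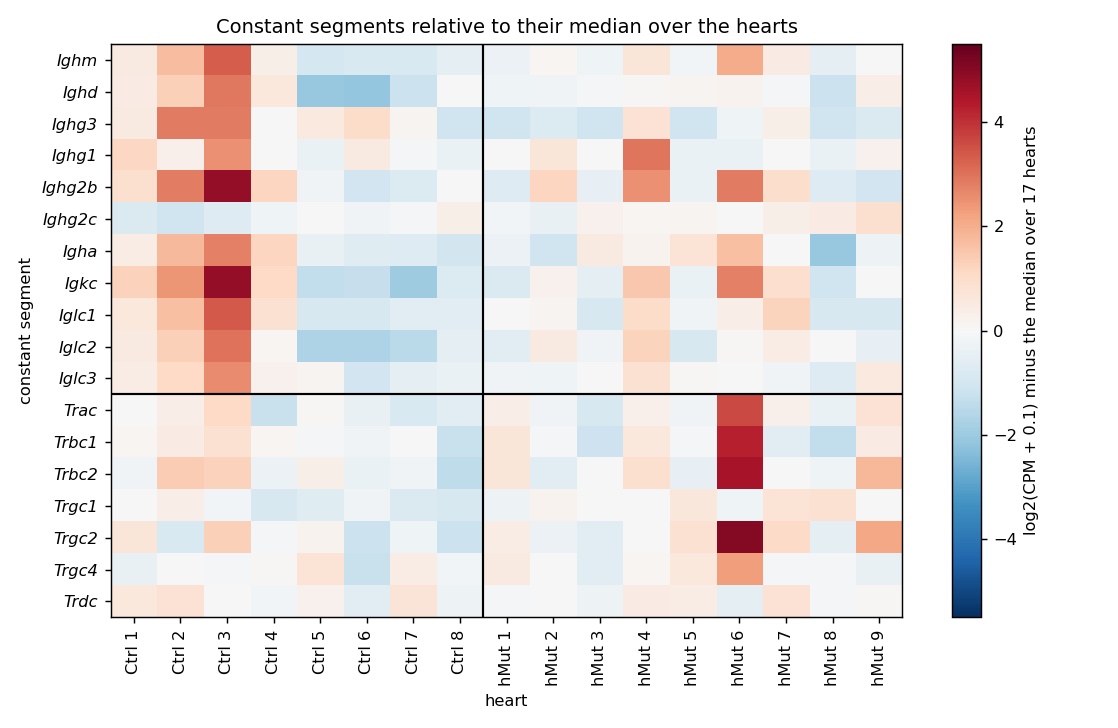
Log2(CPM + 0.1) of each of the 18 constant segments in each heart, minus the segment's median over the 17 hearts (red higher, blue lower). Ctrl 3 is highest in 9 of the 11 IG rows (Ighg2c and Ighg1 are the exceptions) and hMut 6 in 5 of the 7 TR rows. Ighg2c has the narrowest range of the IG rows, -1.11 to 0.89, and the TR rows Trdc, -0.57 to 0.82, and Trgc1, -0.87 to 0.84, are narrower.

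IG variable segments summed to 0.523 to 52.7 CPM in Ctrl, with a median of 2.81 CPM, and to 0.621 to 18.9 CPM in hMut, with a median of 1.86 CPM. Without Ctrl 3 and hMut 6 the medians were 1.27 CPM in Ctrl and 1.79 CPM in hMut, so their order turned. The highest single value of a segment lay in Ctrl 3 for 50 of 87, in hMut 6 for 14 and in Ctrl 2 for 9. Kappa variable segments together had 0.225 to 0.857 counts per Igkc count in single hearts, and heavy chain variable segments 0.0253 to 0.137 counts per Ighm count. Of 87 segments, 28 had over 50% of their counts in 1 heart, against none of the 11 IG constant segments. The medians of the share in the top heart were closer, at 42.9% for IG variable and 34.5% for IG constant segments. Shares of segments with few counts are also less certain.

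Igkv16-104, a kappa variable segment, was the called member. It had 63 counts in Ctrl 3, 6 each in Ctrl 1 and Ctrl 2, 3 in Ctrl 8 and none in the other 4 Ctrl hearts, and 1 count in hMut 1 and none in the other 8 hMut hearts. Most of its 79 counts thus lay in 1 control heart, and 12 of 17 hearts had none. Its log2 fold change was -5.58 (SE 1.34; edgeR adjusted p = 0.0323), a fitted value that depends on the prior count because nearly all hMut hearts are at 0. Without Ctrl 3 it was -3.31 (adjusted p = 0.0974), and 13 of 27 alternative fits kept the call, 9 of them among the 17 fits that left out 1 heart. Igkv8-27, named after its values were seen, had 184 of its 193 counts in Ctrl 3 and fell just outside the threshold (adjusted p = 0.0510).

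In 8 hearts with at least 100 counts on kappa variable segments, 2 segments led. Igkv5-39 led in Ctrl 1, Ctrl 2, Ctrl 3, Ctrl 4, hMut 2, hMut 4 and hMut 7. Its share was 45.6% of 476 counts in Ctrl 2 (95% Wilson interval 41.2 to 50.1%), 33.97% of 1319 in Ctrl 3 (31.5 to 36.6%), 55.0% of 111 in hMut 7 (45.7 to 63.9%) and 16.9% of 177 in hMut 4 (12.1 to 23.2%). The leading segment was therefore shared by 4 Ctrl and 3 hMut hearts. In hMut 6 it was replaced by Igkv3-2, with 232 of 524 counts (44.3%, 40.1 to 48.6%), while Igkv5-39 had 4 counts there. Igkv3-2 had at most 26 counts in any other heart, and Igkv5-39 was at 0 in 6 of 17 hearts. Igkv3-4, the third kappa segment by counts, peaked at 88 counts in Ctrl 3. Intervals cover counting error only, since reads without molecular identifiers are not independent molecules.

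**Figure D3:**
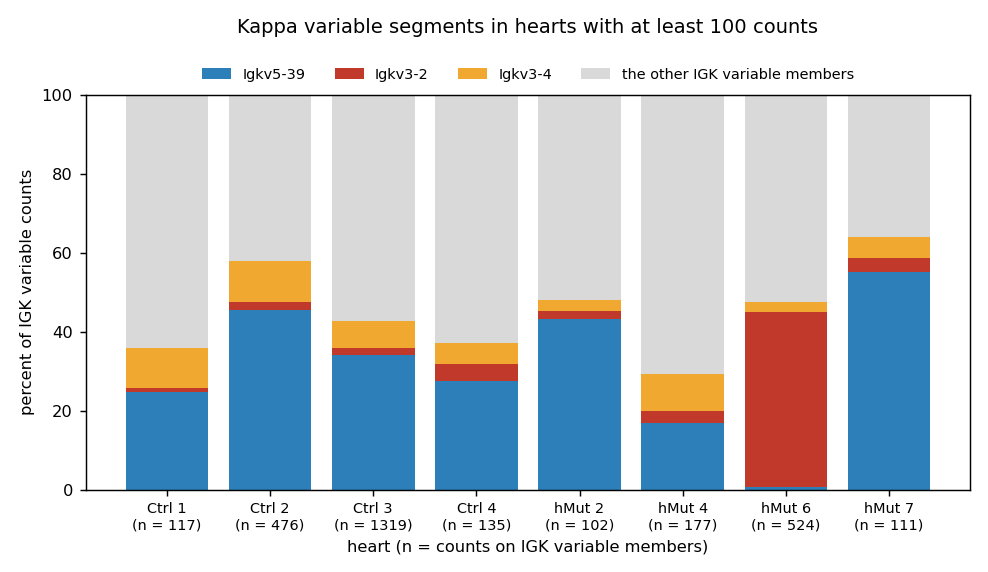
Percent of kappa variable counts on Igkv5-39, Igkv3-2, Igkv3-4 and all other kappa variable members in the 8 hearts with at least 100 such counts, with the number of counts under each bar. Igkv5-39 (blue) leads in 7 hearts and Igkv3-2 (red) takes 44.3% in hMut 6.

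At equal depth, fewer different variable segments were expected in hMut 6 than in the other hearts with enough counts. At 100 kappa variable counts, 19.5 different segments would be seen on average in hMut 6, against 22.1 in hMut 7 and up to 30.4 in hMut 4. For heavy chain variable segments 3 hearts had enough counts, and their expected numbers were 25.5 in Ctrl 2, 25.6 in Ctrl 3 and 19.2 in hMut 6. Since the members were chosen by counts summed over these hearts, the numbers were also taken over all 100 functional kappa and 113 functional heavy chain variable rows, which was done after the data were seen. They were then 20.7 in hMut 6 and 25.1 to 34.7 in the other hearts for kappa, and 25.5 in hMut 6, 34.3 in Ctrl 3 and 36.8 in Ctrl 2 for the heavy chain. The counts were not most concentrated in hMut 6, however. Its 3 leading kappa segments held 60.1% of counts, against 69.3% in Ctrl 2, 65.8% in hMut 7 and at most 54.9% in the others. For the heavy chain the 3 leading segments held 45.6% in hMut 6, 47.5% in Ctrl 3 and 34.4% in Ctrl 2. Each of these hearts had another leading heavy chain segment, which was Ighv3-6 in Ctrl 2 (29 of 180 counts, 16.1%, 11.5 to 22.2%), Ighv1-53 in Ctrl 3 (94 of 427, 22.01%, 18.3 to 26.2%) and Ighv8-8 in hMut 6 (33 of 158, 20.9%, 15.3 to 27.9%). Ighv2-2 followed in Ctrl 3 with 79 counts and had at most 12 elsewhere. The lambda variable segments Iglv1 and Iglv2 had 56 and 11 counts in Ctrl 3 and at most 14 and 7 in any other heart.

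TR segments were low in all hearts but 1. TR constant segments summed to 1.12 to 4.15 CPM in Ctrl, with a median of 2.31 CPM, and to 1.52 to 32.8 CPM in hMut, with a median of 2.97 CPM. hMut 6 stood at 32.8 CPM and the next hearts, hMut 9 and Ctrl 3, at 4.64 and 4.15 CPM, so that apart from hMut 6 the groups overlapped. Without Ctrl 3 and hMut 6 the medians were 2.13 CPM in Ctrl and 2.90 CPM in hMut. None of the 7 TR constant segments passed edgeR's test, and 2 of them, Trgc1 and Trgc2, had an unadjusted p under 0.05.

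Trac, which encodes the alpha chain constant region, had 7 to 49 counts in Ctrl and 11 to 45 in 8 hMut hearts, and 321 in hMut 6. Its log2 fold change was 1.14 (SE 0.60; edgeR adjusted p = 0.303), and without hMut 6 it was -0.01. The beta chain constant segments Trbc1 and Trbc2 had 231 and 319 counts in hMut 6 and at most 17 and 49 elsewhere. Their coding sequences are 95.6% identical, so their split is uncertain, and their fold changes of 1.57 and 1.61 did not pass the test (adjusted p = 0.293 and 0.263). The level of the alpha and beta constants together was 23.7 CPM in hMut 6 against at most 2.74 CPM in any other heart.

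The gamma and delta chain segments were not high together in hMut 6. Trgc2 had 270 counts there, 35 in hMut 9 and at most 16 elsewhere, and its log2 fold change of 2.65 (SE 0.99) did not pass edgeR's test (adjusted p = 0.158). Trgc4 had 38 counts in hMut 6 and 0 to 11 elsewhere. Trgc1 had 6 to 20 counts in Ctrl and 11 to 28 in hMut, with 12 in hMut 6, and its log2 fold change of 0.61 (SE 0.29) did not pass edgeR's test (adjusted p = 0.252). Trdc, the delta chain constant segment, had 11 to 38 counts in Ctrl and 12 to 34 in hMut with 12 in hMut 6. Trgc1 and Trgc2 are 97.4% identical in their coding sequence, so their split is uncertain. Trdc overlaps the variable segment Trdv5 and the long noncoding RNA Gm43434 on the opposite strand, which had 3 and 0 counts. The level of Trdc was 0.327 CPM in hMut 6, within the 0.303 to 0.936 CPM of the controls.

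TR variable segments summed to 0.258 to 1.19 CPM in Ctrl, with a median of 0.441 CPM. In hMut they summed to 0.397 to 7.57 CPM, with a median of 0.939 CPM. Without Ctrl 3 and hMut 6 the medians were 0.405 CPM in Ctrl and 0.849 CPM in hMut, and the groups overlapped. Of these segments, 12 of 17 were highest in hMut 6. That heart also shaped the choice of members, since without it 9 of the 17 would have had under 10 counts. Beta variable members had 185 counts there and at most 29 in any other heart. Trbv20 (42 counts, 22.7%, 17.3 to 29.3%) and Trbv13-2 (41 counts) were nearly level at the top, and Trbv12-2, the third of its locus by counts, had 10. Trgv2 had 69 counts in hMut 6 and at most 4 elsewhere, whereas Trgv6 (0 to 10 counts) and Trgv5 (0 to 10 counts) were not high in that heart. Trdv4, the delta variable member, had 3 to 11 counts in Ctrl and 7 to 23 in hMut, with a log2 fold change of 0.51 (SE 0.30; edgeR adjusted p = 0.359). The alpha locus had 1 variable member, Trav12-2, with 10 counts in hMut 6, 4 in hMut 9 and 0 in the other 15 hearts.

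Marker genes of lymphocytes were read beside the segments, and none of the 130 tested genes of the 16 lists used passed edgeR's test, where 35 (26.9%) had an unadjusted p under 0.05, against 19.4% of all genes. DESeq2 and limma-voom called 7 each (5.38%), against 6.04% and 5.15% of all genes by these tools. The B cell list of 14 genes summed to 92.9 CPM in Ctrl 3, 38.0 in Ctrl 2 and 30.6 in hMut 6, and to 7.31 to 25.2 CPM in the other hearts. In Ctrl 3, 13 of its 14 genes were at their highest, the exception being Blk, a kinase also found in other lymphocytes, which was highest in hMut 6 (14.6 CPM). Cd79a, which carries the signal of the B cell receptor, was at 9.96 CPM in Ctrl 3 and 3.88 CPM in Ctrl 2 and at 1.72 CPM in hMut 6, within the 0.678 to 3.01 CPM of the other hMut hearts. Of the 14 genes, 11 lay in hMut 6 within the range of the other hMut hearts, and 3 lay above it, which were Blk and, both named after their values were seen, Pax5 and Cd22 (4.85 CPM in hMut 6, at most 1.74 CPM in the other hMut hearts and 9.41 CPM in Ctrl 3). Jchain, which links the chains of secreted IgM and IgA (named after its values were seen), had 670 counts in Ctrl 3, 191 in hMut 6 and 123 in Ctrl 2, with at most 60 elsewhere. The plasma cell list summed to 68.7 to 107 CPM in Ctrl and 79.4 to 106 CPM in hMut and consisted mostly of Xbp1, which other cells also express.

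The T cell list of 19 genes summed to 162 CPM in hMut 6 and to 14.5 to 29.5 CPM in the other 16 hearts, and 18 of its genes were highest in hMut 6. Cd8a, a co-receptor of cytotoxic T cells, stood at 29.8 CPM there and at 0.0526 to 2.06 CPM elsewhere. The natural killer cell list summed to 33.5 CPM in hMut 6 against at most 3.78 CPM elsewhere, with Nkg7 at 12.5 CPM. Of its 9 genes, 7 had their highest CPM in hMut 6. Ncr1, Klrb1c and Gzma, named after their values were seen, did not stand out in hMut 6. Ncr1 had 17 counts in hMut 6 and 16 in Ctrl 3, and Klrb1c had 14 in hMut 6 and 14 in Ctrl 1. Gzma had 26 counts in hMut 6 and 33 in hMut 2. The macrophage list was at 855 CPM in hMut 6, 471 CPM in hMut 9 and 161 to 275 CPM in the other hearts, led by the complement gene C1qa (184 CPM in hMut 6). Of its 9 genes, 8 were highest in hMut 6. Lyve1, named after its values were seen, had its fewest counts in hMut 6, at 323 against 399 to 736 in the other hearts. Cxcl13, a chemokine that attracts B cells, was at 26.6 CPM in hMut 6 and at most 6.01 CPM elsewhere. It belongs to the list of lymph node and thymus stroma, whose most abundant gene, the chemokine Ccl21a, was at 8.72 CPM in hMut 6, below the 10.1 to 25.6 CPM of the Ctrl hearts and within the 5.22 to 19.1 CPM of the other hMut hearts. Genes of receptor gene rearrangement and class switching were near the floor, at 0 to 0.639 CPM in sum, and Rag2 and Ptcra were at 0 in all hearts, where a count of 0 allows up to 3 counts in a library.

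**Figure D4:**
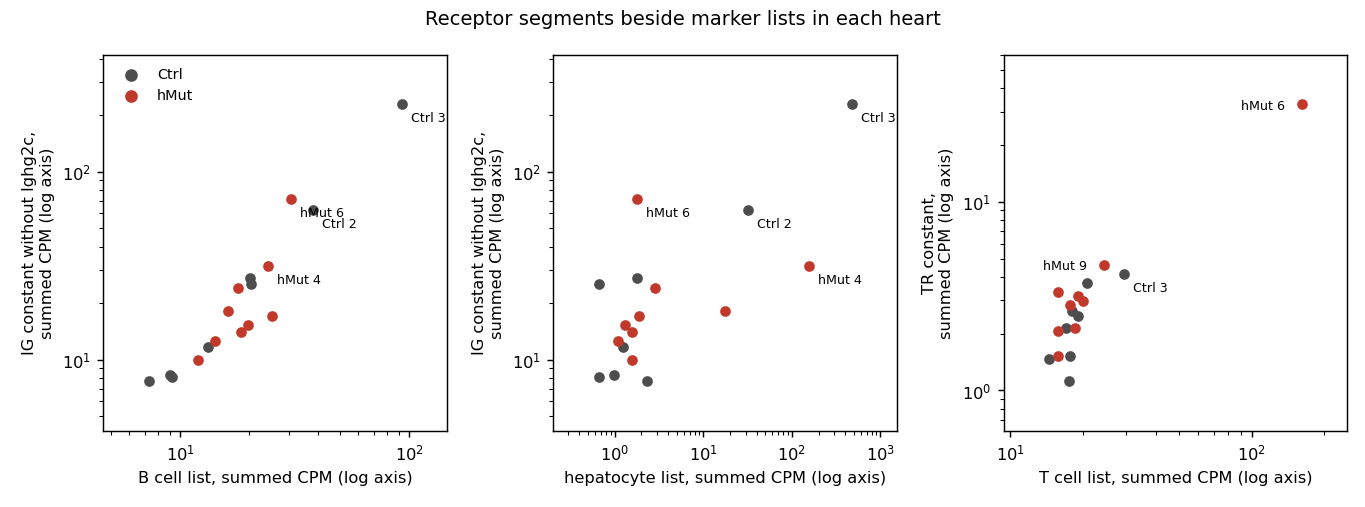
Summed CPM of the IG constant segments without Ighg2c or of the TR constant segments (vertical, log axis) against summed CPM of a marker list (horizontal, log axis), with 1 point per heart (Ctrl grey, hMut red). Ctrl 3 is highest for B cell and hepatocyte markers, hMut 6 for T cell markers, and hMut 6 has 71.7 CPM of IG constants without Ighg2c with 1.80 CPM of hepatocyte markers.

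Hepatocyte transcripts moved with the IG segments in part of the hearts. All 12 genes of the list were highest in Ctrl 3 and next highest in hMut 4, and Alb, the albumin gene, stood at 266 CPM in Ctrl 3, 96.3 CPM in hMut 4, 16.0 CPM in Ctrl 2, 6.89 CPM in hMut 2 and at most 1.22 CPM in the others. The list's range was 0.665 to 475 CPM in Ctrl and 1.08 to 157 CPM in hMut, and no defining gene was at 0 in Ctrl 3 or hMut 4. The part of these transcripts in the IG levels of Ctrl 3, Ctrl 2 and hMut 4 was not tested. In hMut 6 the list was at 1.80 CPM, within the range of hearts low in Igkc. A list of 4 spleen genes, also chosen after the values were seen, summed to 3.49 CPM in Ctrl 3 and 0.580 to 1.35 CPM in the other hearts. Of the 4 genes, 2 were highest in Ctrl 3, which were Spic (55 counts) and Marco (41 counts). Tlx1 had 12 counts in Ctrl 3 and 26 in hMut 2, and Cd209b had 12 in Ctrl 3 and 14 in hMut 8. A list of 6 red blood cell genes, 4 of them hemoglobin genes, summed to 231 to 1307 CPM, with Ctrl 2 highest and Ctrl 3 at 480 CPM and hMut 6 at 568 CPM, close to the group medians of 500.0 and 568 CPM.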

How the data were processed

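Polyadenylated RNA from 17 mouse hearts (8 Ctrl, 9 hMut) was sequenced by the study. The authors deposited raw counts per gene, made per the labels with fastp, HISAT2 2.2.1 on GRCm39 and featureCounts 2.0.6. The strand setting and annotation release are not given in the sources used here. No column of other samples was present (0).

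Groups and replicate numbers follow the labels. The segments, gene lists and tests were chosen with earlier results of these data known. Genes with at least 10 counts over the libraries were tested with edgeR (version 4.0.16; TMM, quasi-likelihood F test, no covariates, Benjamini-Hochberg over 24898 genes, threshold 0.05), a procedure tested on simulated counts. DESeq2 (1.42.0), limma-voom (limma 3.58.1), other filters and scalings, a replicate block and fits without named hearts were alternatives. Two-sided p-values measure the spread between libraries. CPM is a count divided by the library's total, times 1000000, without pseudocount, and sums over segments carry no test. The total includes the genes of mitochondrial DNA, which held 25.8% of counts at the median in Ctrl and 20.5% in hMut. CPM was not corrected for this difference, which makes CPM of other genes somewhat higher in hMut. Positions and sequences come from GRCm39 with GENCODE M39, in which 138 of 139 members had identical coordinates.

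Named segments are all constant segments, members past the threshold, the 3 variable segments with most counts per locus, leaders of hearts with at least 100 variable counts, and, per list, the 3 genes with most counts. A count of 0 allows up to 3 counts.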

Additional observations from a re-analysis of the deposited data

Results flagged for a closer look

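Within each group, the highest and lowest heart was compared with the nearest other heart by Dixon's criterion on log2(CPM + 0.1), for 23 quantities and so 46 groups. It marked 12 values, which lay in 4 hearts, where chance marks about 1 in 20 groups, and the quantities overlap because segments enter the sums.

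Ctrl 3 stood apart from the other Ctrl hearts in the sum of IG constant segments, at 239.2 CPM. hMut 6 stood apart from the other hMut hearts in the same sum, at 89.9 CPM, in the sums of TR constant segments, at 32.8 CPM, and TR variable segments, at 7.57 CPM, and in Ighm, at 46.3 CPM. The IG constant sums passed narrowly, with a gap over range of 0.529 in Ctrl 3 (critical 0.526) and 0.494 in hMut 6 (critical 0.493). Without Ighg2c neither heart was marked in this sum (0.382 and 0.415). Neither was marked in IG variable segments or Igkc, and Ctrl 3 was not marked in Ighm. Among single TR constants, hMut 6 stood apart in Trac (8.75 CPM), Trbc2 (8.69 CPM), Trbc1 (6.29 CPM), Trgc2 (7.36 CPM) and Trgc4 (1.04 CPM). hMut 4 stood apart in Ighg1, at 0.896 CPM, and hMut 8 at the low end in Ighd, at 0.734 CPM.

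hMut 6 accounts for 9 of the 12. In that heart the T cell list summed to 162 CPM and the hepatocyte list to 1.80 CPM, whereas in Ctrl 3 they summed to 29.5 and 475 CPM. The part of these cell types in the values was not tested.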

How the results depend on the processing

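The 551 called genes became 1505 with DESeq2, 1282 with limma-voom, 191 with the replicate block over libraries 1 to 8, 339 to 1347 with 1 heart left out, and, in fits chosen after seeing the data, 321 without hMut 6, Ctrl 2 and Ctrl 3 and 214 without Ctrl 2, Ctrl 3 and hMut 4. The members called became 0 with DESeq2, limma-voom, the filterByExpr filter (11 members tested), the replicate block, without hMut 6 and Ctrl 3 and in both added fits, and 0 to 3 with 1 heart left out. Constant segments called were 0 except 1 (Ighg3) without Ctrl 8 or hMut 4. The labels name no pairing of animals by replicate number. Deviations of same-numbered libraries correlated at -0.23 to 0.34, over 0.1 in 1 of 8 pairs, which cannot settle whether a pairing exists. Several uncalled log2 fold changes turned sign. With DESeq2, Ighm was 0.061, Trac -0.025, Ighg2b 0.086 and Trbc1 -0.31. With limma-voom, Ighd was 0.074, Trbc1 -0.46 and Iglc2 0.60, and with the replicate block Iglc2 was 0.035. Without hMut 6 and Ctrl 3, Trbc1 was -0.10, Iglc2 0.17, Trgc4 -0.15 and Ighg1 1.31. Without hMut 6, Ctrl 2 and Ctrl 3, Ighm was 0.16, Igkc 0.053, Ighd 0.10, Ighg2b 0.63, Iglc2 0.78, Iglc1 0.39, Iglc3 0.23, Trgc4 -0.15 and Ighg1 1.31. Without Ctrl 2, Ctrl 3 and hMut 4, Ighm was 0.50, Igkc 0.49, Ighd 0.10, Igha 0.074, Ighg2b 0.77, Iglc2 0.46 and Iglc1 0.11. With 1 heart left out, the values ran from -1.31 to 0.036 for Ighm, -2.15 to 0.054 for Ighg2b and -1.29 to 0.13 for Iglc2, positive without Ctrl 3, from -0.013 to 1.45 for Trac, -0.32 to 1.78 for Trbc1 and -0.12 to 0.83 for Trgc4, negative without hMut 6, and from -2.05 to 1.13 for Ighg1. The cause was not tested. Class medians moved by less than the spread between hearts under both other scalings. With 26 of 139 members at 100 counts or more, small differences were not detectable at this depth.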

Other observations

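hMut 9 was second to hMut 6 in several lymphocyte and macrophage quantities. It had 35 counts of Trgc2 and 49 of Trbc2, its TR constant segments summed to 4.64 CPM, and its macrophage list stood at 471 CPM and its dendritic cell list at 44.8 CPM. It also had the most Ighg2c of all hearts (1318 counts, 33.4 CPM), while its Igkc count of 111 was in the middle of the hMut hearts.

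Joining and diversity segments were sparse. The 4 heavy chain joining members held 31 to 59 counts each and the 5 kappa joining members 17 to 43, and the 6 beta joining members held 10 to 23. Heavy chain joining segments summed to 0.900 CPM in Ctrl 3 and to 0.109 CPM in hMut 6, although hMut 6 had the third most heavy chain variable counts (158).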
